A study of Mus musculus with 6 samples.

Results

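The 30 genes described here encode the enzymes that make cholesterol and the proteins that control SREBP2, the transcription factor that drives them. They were chosen by name from the deposited table of gene expression, which held 24493 genes, and all 30 were found in it. The table holds 6 RNA libraries of KPCY cells, mouse pancreatic tumour cells of strain C57BL/6. The labels do not spell out the alleles these cells carry. All libraries came from cells transduced with a short hairpin RNA, which lowers the transcript it pairs with. The control group carried the non-targeting hairpin shNT (n = 2), and the others carried shPthlh oligo #1 (n = 2) or shPthlh oligo #2 (n = 2), called hairpin 1 and hairpin 2 below, against the gene of parathyroid hormone-related protein. The design names a pair of parental clones, but no label says which clone a library came from, so hairpin and clone cannot be told apart. The labelled condition is tumour cells sorted in vivo, whereas the growth protocol describes culture in DMEM, and animal age and growth time are not given in the sources used here. Nothing labels the replicates as separate animals or cultures, and p-values here weigh differences against library spread alone, part of which may be technical.

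Cholesterol is built from acetyl-CoA through mevalonate and isoprenoid units, which are joined into squalene, closed into the first sterol and then trimmed to cholesterol. Isoprenoids also leave the route for prenyl anchors on proteins, dolichol and ubiquinone. SREBP2 is held in the endoplasmic reticulum by Scap and the Insig proteins when sterols are plentiful. When sterols run low, Scap carries it to the Golgi, where a pair of proteases releases the fragment that enters the nucleus and switches on the genes of the route.

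Values were TPM, a relative transcript abundance that sums to the same total in every library, and are scaled for transcript length, so levels can be compared between genes. The number of reads behind them is unknown. The small-RNA entry Mir6236 made up 34.1% and 24.3% of the summed TPM of the control libraries and 19.7% to 23.4% in the other 4. A larger share leaves less of the fixed total for the other genes. The median of all tested genes lay 0.10 higher with both hairpins averaged on the log2(TPM + 1) scale, and at -0.04 without small-RNA entries. The part of Mir6236 in this offset was not tested. Pthlh was at 0.752 and 0.966 TPM in shNT and at 0 to 0.263 TPM in the 4 knockdown libraries. The epithelial keratins Krt8, Krt18 and Krt19 and the cadherin Cdh1 were at 232 TPM or more in every library, while Epcam, another epithelial marker, was at no more than 0.605 TPM. Krt19 was at 988 and 990.3 TPM under hairpin 1 and at 418 to 444 TPM elsewhere, and the pancreatic factor Pdx1 at 9.42 and 10.9 TPM under hairpin 1 and at 0.695 to 2.97 TPM elsewhere, and Sox9 stood at 180% of its shNT level with hairpin 1. Krt18 and Cdh1 went the other way, at 74.0% and 78.7% of shNT with hairpin 1 and with every knockdown library below shNT; the part of these markers in the results below was not tested. Summed markers of lymphocytes, fibroblasts and endothelium came to at most 0.522 TPM in any library, of myeloid cells to 1.33 to 2.86 TPM, of erythroid cells to 0.945 to 2.197 TPM and of acinar cells, through Cela1, to 11.8 to 20.1 TPM. Adgre1, Cd3e, Nkg7, Lum, Cpa1 and Hbb-bs were at 0 in all 6 libraries. In bulk samples fewer cells of a type and less RNA per cell cannot be told apart.

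Transcripts of the cholesterol route were lower with each Pthlh hairpin. Summed over the 22 enzymes, the level was 2122 and 2184 TPM in the shNT libraries, 1152 and 1146 TPM under hairpin 1, then 1414 and 1424 TPM under hairpin 2. The median enzyme kept 53.5% of its shNT level with hairpin 1 and 67.1% with hairpin 2. The enzymes that fell spanned the route from acetoacetyl-CoA to the last sterol steps, whereas Ggps1, Nus1 and Lbr did not pass the test for a fall with either hairpin, and most SREBP regulators did not either. This contrast depended on scaling. With another scaling of the libraries, described below, Ggps1, Lbr, Srebf2 and Scap were also called lower with both hairpins averaged.

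All 30 genes passed the filter for testing (2 or more libraries with TPM of 1 or above). Changes are differences in mean log2(TPM + 1), tested with limma over 11549 genes with Benjamini-Hochberg adjusted p under 0.05. With the mean of both hairpins against shNT, 21 of the 30 were lower and 1 was higher, against 12.1% lower and 27.3% higher among all tested genes. Hairpin 1 against shNT gave 20 lower and 3 higher, against 18.1% and 32.1% of all tested genes. With hairpin 2 it was 21 lower and 0 higher, against 3% (347 of 11549) and 6.62%. At an unadjusted p under 0.05, 0 members and 2807 of all tested genes were higher with hairpin 2. Lower with each hairpin were 20 members, 18 of them enzymes, where 2.24% of all tested genes met that rule. In 22 of the 30 every knockdown library lay below both shNT libraries, as did 10.4% of all tested genes, and in 1 every knockdown library lay above, as did 30.3%. The median change was -0.61 for the 30 genes and 0.10 for all tested genes. After median-ratio scaling, which moved the median of all genes to 0.01 and their calls from 1401 lower and 3149 higher to 2167 lower and 1742 higher, 25 members were lower and 0 higher in the comparison of both hairpins.

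The calls rest on few libraries. When the 4 knockdown libraries formed a single group, which adds the gap between hairpins to the spread, limma called 0 of the 30 and 1 of all 11549 genes lower, and 20 members and 597 genes were lower at an unadjusted p under 0.05. For hairpin 2 alone, limma called 0 members lower without hairpin 2 replicate 1 and 0 without hairpin 2 replicate 2 (21 and 22 at an unadjusted p under 0.05), 13 without hairpin 1 replicate 1, 12 without hairpin 1 replicate 2 and 12 when hairpin 1 was left out of the fit. Over all tested genes these settings called 0, 3, 60, 56 and 51 lower (575 and 674 at an unadjusted p under 0.05 in the first pair).

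**Figure D1:**
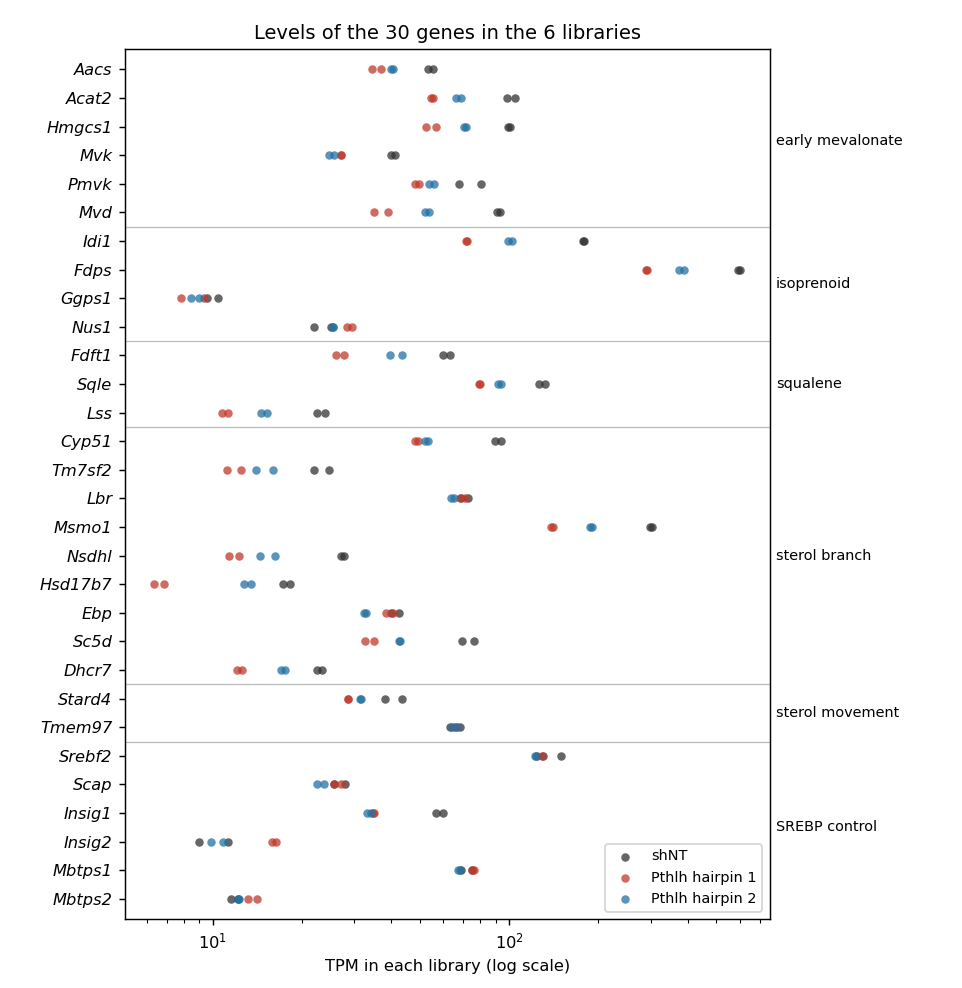
Level of each gene in TPM (log axis) in the 6 libraries, 1 point per library, ordered by role. The 2 shNT points (dark) lie right of all knockdown points for 22 genes, and hairpin 2 (blue) lies between shNT and hairpin 1 (red) for most enzymes, while Lbr, Tmem97 and Mbtps1 show mixed points.

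Because the enzymes moved together, the promoters were read for known boxes. RefSeq promoter sequence of the matching build (GRCm38.p6, 250 bases before to 50 after each start site) was held for 26 of the 30 genes. Each window was searched on both strands for the sterol regulatory element core TCACNCCAC, bound by SREBP proteins, the CCAAT box of the cofactor NF-Y and the GGGCGG box of Sp1. The CCAAT box was in at least 1 window of 21 of the 26 genes (80.8%), against 43.3% of 8886 tested genes with an entry and 41.058% of all 27025 genes in the table. The Sp1 box was in 22 of 26 (84.6%), against 70.5% of tested and 38.202% of all genes. The exact sterol regulatory core was in 1 of 26 (3.8%), against 1.4% of tested and 1.436% of all genes. None of the 3 motifs contains another, and a match is a description of sequence, not a measured binding site. Annotated exons of the gene or a neighbour covered part or all of some windows. Among windows with a CCAAT box, they covered all 250 bases before the start site for Idi1, Tm7sf2 and 1 Dhcr7 window. For Hmgcs1, Mvd and Mbtps2 they covered 0 of those bases.

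Of the 17 members with an entry that were lower in the comparison of both hairpins, 15 held a CCAAT box, and of the 9 that were not, 6 did. Aacs and Acat2 were the lower members without one. The 250 bases before the start site are shown for 3 members, 5′ to 3′ on the gene's own strand, with the sterol regulatory core and CCAAT boxes (ATTGG on the other strand) in capitals. Hmgcs1 is shown as the member with the sterol regulatory core, which begins 137 bases before the start site, with CCAAT boxes that begin 237, 176 and 45 bases before it. Mvd, an enzyme with a deep fall, has CCAAT boxes that begin 60 and 27 bases before its start site. Mbtps2, a regulator that did not fall, has none of the searched boxes. Aacs has none of them either and fell with each hairpin. Ggps1, with 3 CCAAT boxes, and Lbr, Nus1 and Tmem97, with 2 each, were not called lower.
Hmgcs1 (chr13:119690101-119690350, plus strand): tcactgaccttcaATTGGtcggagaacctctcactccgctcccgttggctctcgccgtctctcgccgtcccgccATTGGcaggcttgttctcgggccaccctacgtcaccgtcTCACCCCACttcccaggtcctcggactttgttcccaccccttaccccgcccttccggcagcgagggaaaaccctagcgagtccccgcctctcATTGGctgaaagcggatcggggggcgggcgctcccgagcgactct
Mvd (chr8:122443423-122443672, minus strand): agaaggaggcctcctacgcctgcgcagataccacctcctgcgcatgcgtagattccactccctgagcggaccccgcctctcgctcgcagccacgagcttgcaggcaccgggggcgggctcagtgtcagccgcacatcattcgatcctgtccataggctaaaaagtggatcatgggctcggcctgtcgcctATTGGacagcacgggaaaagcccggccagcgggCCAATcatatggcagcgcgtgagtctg
Mbtps2 (chrX:157598716-157598965, minus strand): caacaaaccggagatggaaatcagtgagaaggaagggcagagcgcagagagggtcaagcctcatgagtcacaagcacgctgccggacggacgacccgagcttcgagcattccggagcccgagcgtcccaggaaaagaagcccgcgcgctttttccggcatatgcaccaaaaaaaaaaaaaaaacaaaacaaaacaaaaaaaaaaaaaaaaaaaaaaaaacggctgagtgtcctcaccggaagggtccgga

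All 6 genes of the steps up to the isoprenoid unit fell with each hairpin. Hmgcs1 (chromosome 13), the cytosolic synthase that joins acetoacetyl-CoA with acetyl-CoA, was at 99.1 and 100.7 TPM in shNT, 56.5 and 52.5 TPM under hairpin 1, then 71.5 and 70.3 TPM under hairpin 2. The 3 groups did not overlap, with hairpin 1 lowest. Hmgcs1 fell by 0.86 ± 0.05 (log2, SE) with hairpin 1 and by 0.49 ± 0.05 with hairpin 2 (limma adjusted p = 0.000219 and 0.0129).

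Mvd, the decarboxylase that yields isopentenyl diphosphate, showed the lowest share of the shNT level in this stretch. It was at 90.7 and 93.3 TPM in shNT, 35.1 and 39.0 TPM under hairpin 1, then 53.8 and 52.1 TPM under hairpin 2. These are 40.3% and 57.6% of the shNT mean, and Mvd fell by 1.29 ± 0.06 and by 0.78 ± 0.06 (log2, SE; limma adjusted p = 0.000127 and 0.00783).

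The kinases before it also fell with each hairpin. Mvk, mevalonate kinase, was at 39.8 and 41.2 TPM in shNT, 27.2 and 27.2 TPM under hairpin 1, then 24.7 and 25.6 TPM under hairpin 2. It was the only enzyme of the 18 lower with each hairpin whose mean was lower with hairpin 2 than with hairpin 1, a difference of -0.11 (95% interval -0.22 to 0.00) that missed the threshold (limma adjusted p = 0.110). Pmvk, phosphomevalonate kinase, was at 67.7 and 80.1 TPM in shNT, 48.0 and 49.8 TPM under hairpin 1, then 55.6 and 53.7 TPM under hairpin 2. Its shNT libraries had the wider spread (SD 8.74 TPM), and its call for hairpin 2 (limma adjusted p = 0.0401) was lost under 8 of 18 alternatives, among them the omission of any single hairpin library (hairpin 1 or 2, replicate 1 or 2) (limma adjusted p over all alternatives 0.00504 to 0.199).

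The entry steps moved less than Mvd. Acat2, the cytosolic thiolase that makes acetoacetyl-CoA, kept 54.1% of its shNT level with hairpin 1 and 66.4% with hairpin 2, from 102 ± 4.47 TPM (SD, n = 2). Aacs, which makes acetoacetyl-CoA from ketone bodies, kept 65.9% and 74.5%, from 54.2 ± 1.40 TPM (SD, n = 2). The Aacs call for hairpin 2 (limma adjusted p = 0.0178) was lost under 5 of 18 alternatives, among them the fit without hairpin 1. Longest transcripts of Acat2 and of the gene Acat3 aligned over 1477 bases at 97.7% identity, so reads of the pair can be split between them, and Acat3 was at 0.423 to 0.650 TPM. Acat2 and Tcp1, a chaperonin gene at 281 to 311 TPM and so above Acat2 in every library, aligned over 445 bases at 98.7% identity, so the Acat2 values are uncertain by any reads moved between these 2 genes.

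Of the 4 isoprenoid genes, Idi1 and Fdps, on the way to squalene, fell with each hairpin, and Ggps1 and Nus1, on side branches, were not called lower; the difference between the branches was not tested. Idi1, the isomerase of the isoprenoid unit, kept 40.3% of its shNT level with hairpin 1 and 56.5% with hairpin 2. Fdps, which makes farnesyl diphosphate, had the highest level of all 30 genes. It was at 592 and 602 TPM in shNT, 291 and 289 TPM under hairpin 1, then 373 and 388 TPM under hairpin 2. The groups were far apart next to their replicate gaps, and Fdps fell by 1.04 ± 0.05 and by 0.65 ± 0.05 (log2, SE; limma adjusted p = 0.000123 and 0.00682).

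Ggps1 and Nus1 use the same precursors for other products. Ggps1, the geranylgeranyl diphosphate synthase that supplies protein prenylation, was at 9.60 and 10.5 TPM in shNT, 9.39 and 7.84 TPM under hairpin 1, then 8.47 and 9.02 TPM under hairpin 2. All knockdown libraries lay below both shNT libraries, but the highest by only a little, and the change of -0.19 (95% interval -0.40 to 0.02) missed the threshold (limma adjusted p = 0.118). It passed after median-ratio scaling (-0.28, limma adjusted p = 0.0392), under quantile normalization and without small-RNA entries, over a range of 0.0328 to 0.347 across its alternatives. Ggps1 overlaps Arid4b, on the other strand, by 257 bases, and strand use in the counting is not given in the sources used here.

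Nus1, a subunit of the prenyltransferase that builds dolichol, was the 1 member with every knockdown library above both shNT libraries. It was at 21.9 and 25.1 TPM in shNT, 28.3 and 29.6 TPM under hairpin 1, then 25.5 and 25.4 TPM under hairpin 2. Nus1 rose by 0.29 ± 0.07 (log2, SE) with hairpin 1 (limma adjusted p = 0.0201), a call lost under 6 of 18 alternatives, among them median-ratio scaling (limma adjusted p = 0.0752) and the omission of hairpin 1 replicate 1 or hairpin 1 replicate 2 (range 0.00296 to 0.314), and was at 0.11 with hairpin 2 (limma adjusted p = 0.325).

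The 3 enzymes that make and close squalene fell with each hairpin and differed between hairpins. Fdft1, squalene synthase, was at 59.7 and 63.0 TPM in shNT, 27.8 and 26.1 TPM under hairpin 1, then 43.5 and 39.7 TPM under hairpin 2. Its hairpin 2 mean was 154% of its hairpin 1 mean, a gap of 0.61 ± 0.06 (log2, SE; limma adjusted p = 0.00167). The Fdft1 call for hairpin 2 against shNT (limma adjusted p = 0.0167) was lost under 5 of 18 alternatives, among them the fit without hairpin 1. Fdft1 shares 774 bases with Ctsb, a cathepsin gene on the other strand at 72.5 to 98.9 TPM, so its reads may include some of Ctsb.

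Sqle, the epoxidase that adds the first oxygen, moved least of the squalene genes. It was at 126 and 132 TPM in shNT, 80.0 and 79.4 TPM under hairpin 1, then 91.98 and 94.0 TPM under hairpin 2. The Sqle call for hairpin 2 (limma adjusted p = 0.0110) was lost under 4 of 18 alternatives, among them the fit without hairpin 1. Its gap between hairpins of 0.22 (limma adjusted p = 0.0125) was lost when any hairpin library was left out (limma adjusted p over 18 alternatives 0.00389 to 0.0888). Lss, which closes the ring to lanosterol, kept 47.3% of its shNT level with hairpin 1 and 64.1% with hairpin 2, from 23.3 ± 1.05 TPM (SD, n = 2).

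In the sterol branch 7 of 9 genes fell with each hairpin. Msmo1, a sterol methyl oxidase, was the most abundant of them, at 299 and 302 TPM in shNT, 140.4 and 139 TPM under hairpin 1, then 188 and 191 TPM under hairpin 2. It kept 46.4% and 63.0% of its shNT level and fell with each hairpin (limma adjusted p = 7.89e-05 and 0.00511). Its partners in removing methyl groups, the dehydrogenase Nsdhl and the ketoreductase Hsd17b7, also fell with each hairpin. Nsdhl was at 27.7 and 27.1 TPM in shNT, 11.4 and 12.2 TPM under hairpin 1, then 16.3 and 14.4 TPM under hairpin 2.

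Hsd17b7 had the widest gap between hairpins of the 30 genes. It was at 17.3 and 18.2 TPM in shNT, 6.83 and 6.36 TPM under hairpin 1, then 12.8 and 13.5 TPM under hairpin 2. The hairpin 1 libraries were the lowest relative to shNT of any member, at 37.2%, while hairpin 2 stood at 74.2%. The Hsd17b7 call for hairpin 2 (limma adjusted p = 0.0257) was lost under 6 of 18 alternatives. Among these were the replicate block, the fit without hairpin 1 and the omission of any single hairpin library. Its change with hairpin 2 ran from -0.539 to -0.367 over all alternatives. The hairpins differed by 0.90 ± 0.06 (log2, SE; limma adjusted p = 0.000504).

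Cyp51, the lanosterol demethylase, fell to 53.1% and 57.4% of its shNT level, so that its hairpins lay close together (difference 0.11, 95% interval 0.00 to 0.22, limma adjusted p = 0.0966). Sc5d, a sterol desaturase, kept 46.7% and 58.9%, from 72.7 ± 4.60 TPM (SD, n = 2). It lies on chromosome 9, where the median tested gene was at -0.24 with hairpin 1 and -0.18 with hairpin 2 relative to all tested genes; with chromosome medians removed Sc5d was at -0.85 and -0.56 and remained past the threshold with each hairpin (limma adjusted p = 0.000458 and 0.0174). Dhcr7, the reductase of the last step in one arm of the route, kept 53.9% and 75.4% of 22.9 ± 0.596 TPM (SD, n = 2). The Dhcr7 call for hairpin 2 (limma adjusted p = 0.0196) was lost under 5 of 18 alternatives, among them the fit without hairpin 1.

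The sterol reductase step is shared by Tm7sf2 and Lbr, which act on the same double bond, and only Tm7sf2 passed the test. Tm7sf2 was at 21.9 and 24.7 TPM in shNT, 11.2 and 12.5 TPM under hairpin 1, then 14.0 and 16.03 TPM under hairpin 2, and fell with each hairpin (limma adjusted p = 0.00118 and 0.0277), the latter call being lost under 6 of 18 alternatives, among them no filter and the omission of any hairpin library (limma adjusted p 0.00375 to 0.160). Lbr, which is also the lamin B receptor of the nuclear envelope, was at 68.6 and 72.4 TPM in shNT, 71.1 and 68.5 TPM under hairpin 1, then 64.9 and 63.7 TPM under hairpin 2. Hairpin 1 overlapped shNT and hairpin 2 lay below it, and its changes were -0.01 (95% interval -0.13 to 0.10) and -0.13 (95% interval -0.25 to -0.01), with limma adjusted p = 0.824 and 0.131. After median-ratio scaling Lbr passed with both hairpins averaged (-0.17) and with hairpin 2, at limma adjusted p = 0.0223 and 0.0477. The difference in change between Tm7sf2 and Lbr was not tested. Tm7sf2 lies on chromosome 19, whose median tested gene was at -0.17 with hairpin 1 relative to all tested genes, and overlaps Vps51 on the same strand by 532 bases.

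Ebp, the isomerase that shifts the sterol double bond, went against the order of the hairpins. It was at 39.8 and 42.6 TPM in shNT, 40.6 and 38.4 TPM under hairpin 1, then 32.8 and 32.4 TPM under hairpin 2. Hairpin 1 overlapped shNT, and hairpin 2 lay below all other libraries. Ebp fell by 0.33 ± 0.05 (log2, SE) with hairpin 2 (limma adjusted p = 0.0287) and was at -0.06 with hairpin 1 (limma adjusted p = 0.382). It was lower with hairpin 2 than with hairpin 1 (-0.27, limma adjusted p = 0.0126). After median-ratio scaling or with chromosome medians removed, Ebp was also called lower with hairpin 1. With both hairpins averaged it was lower (-0.19, limma adjusted p = 0.0236), a call lost under 5 of 18 alternatives. The fall with hairpin 2 was lost under 6 of 18 alternatives, among them the omission of any single hairpin library (hairpin 1 or 2, replicate 1 or 2) (limma adjusted p 0.0151 to 0.165). The difference between hairpins was lost when small-RNA entries were left out and without hairpin 1 replicate 1 or either hairpin 2 library (replicate 1 or 2), at limma adjusted p of 0.00585 to 0.0836 over all alternatives.

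**Figure D2:**
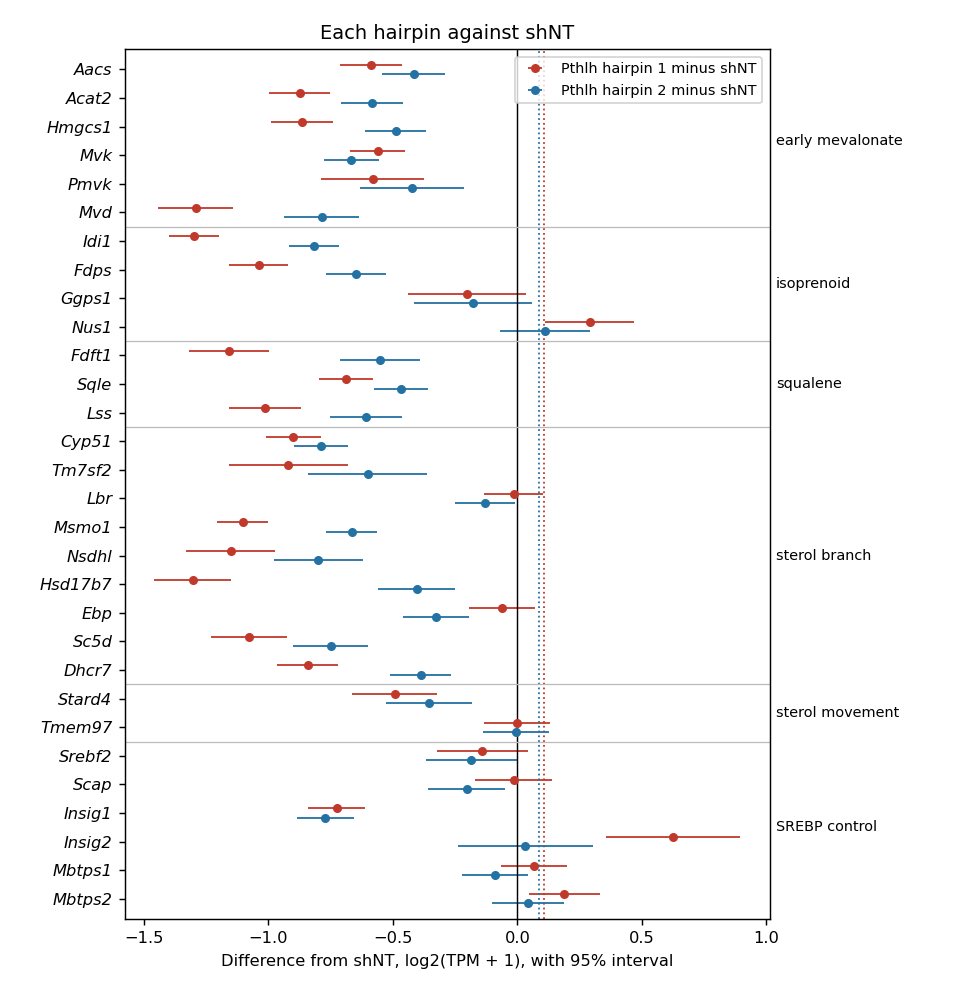
Difference of each hairpin group from shNT in mean log2(TPM + 1), with 95% intervals from limma, by gene and role; dotted lines mark the median of all tested genes, 0.11 for hairpin 1 and 0.09 for hairpin 2. Both intervals lie below 0 for 20 genes that passed the test, Insig1 shows nearly equal values for both hairpins, and Insig2 lies above 0 with hairpin 1 alone.

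Of the proteins that move sterols, Stard4 fell and Tmem97 did not pass the test. Stard4 (chromosome 18), a carrier of cholesterol between membranes, was at 38.0 and 43.5 TPM in shNT, 28.6 and 28.6 TPM under hairpin 1, then 31.6 and 31.5 TPM under hairpin 2. All knockdown libraries were below both shNT libraries, and Stard4 fell with each hairpin (limma adjusted p = 0.00296 and 0.0389), the call for hairpin 2 being lost under 8 of 18 alternatives, among them no filter, no variance trend, the replicate block and the omission of any hairpin library (limma adjusted p 0.0118 to 0.191). Tmem97, a sterol-binding membrane protein linked to the cholesterol exporter of lysosomes, was at 63.3 to 68.2 TPM over all 6 libraries. Its change with both hairpins averaged had a 95% interval of -0.12 to 0.11.

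Among the 6 genes of SREBP control, Insig1 was the 1 called lower. Insig1, which retains the Scap-SREBP complex and is itself a target of SREBP proteins, was at 59.7 and 56.7 TPM in shNT, 34.9 and 34.6 TPM under hairpin 1, then 34.2 and 33.2 TPM under hairpin 2. The knockdown libraries were close together and far below shNT. Insig1 fell by 0.73 ± 0.05 and by 0.77 ± 0.05 (log2, SE; limma adjusted p = 0.000298 and 0.00511), and the hairpins differed by -0.05 (95% interval -0.16 to 0.07).

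Insig2, its relative with the same retaining role, was higher with hairpin 1. It was at 8.98 and 11.3 TPM in shNT, 16.4 and 15.8 TPM under hairpin 1, then 9.85 and 10.8 TPM under hairpin 2. Hairpin 1 lay above all other libraries and hairpin 2 lay inside the shNT range. Insig2 rose by 0.62 ± 0.11 (log2, SE) with hairpin 1 (limma adjusted p = 0.00599) and was higher there than with hairpin 2 by 0.59 (limma adjusted p = 0.00951), which was lost without either hairpin 1 library (replicate 1 or 2) and without hairpin 2 replicate 1 (limma adjusted p over all alternatives 0.00157 to 0.0606). With both hairpins averaged it was the 1 higher member (0.33, limma adjusted p = 0.0401), a call lost under 11 of 18 alternatives, among them median-ratio scaling (limma adjusted p = 0.0932) and the omission of shNT replicate 1, any single hairpin library (hairpin 1 or 2, replicate 1 or 2), in a range of 0.00571 to 0.400.

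The transcript of SREBP2 itself was below shNT in every knockdown library but missed the threshold. Srebf2 was at 149.6 and 130.1 TPM in shNT, 124 and 129 TPM under hairpin 1, then 122 and 123 TPM under hairpin 2. The lower shNT library stood just above the highest knockdown library. Its level with hairpins 1 and 2 was 90.5% and 87.7% of shNT, with 95% intervals of the change of -0.32 to 0.04 and -0.37 to -0.00 (limma adjusted p = 0.160 and 0.150). With both averaged the adjusted p of 0.0911 from limma moved to 0.0340 after median-ratio scaling (-0.26), 0.0399 without small-RNA entries (-0.32) and 0.00480 without shNT replicate 2 (-0.26), and without that library Srebf2 was called lower with each hairpin (limma adjusted p = 0.00567 and 0.0100). Its limma adjusted p over all alternatives ran from 0.00480 to 0.259.

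Scap, the escort of SREBP2, was at 25.6 to 27.9 TPM in shNT and 22.5 to 27.2 TPM in the knockdown libraries and did not pass with either hairpin (limma adjusted p = 0.855 and 0.0928). Scap was called lower with both hairpins averaged under quantile normalization and median-ratio scaling (both -0.21, limma adjusted p = 0.0459 and 0.0412) and with hairpin 2 without shNT replicate 2 (limma adjusted p = 0.0376). It lies on chromosome 9, and with chromosome medians removed its change with hairpin 1 went from -0.02 to 0.21 (limma adjusted p = 0.0375). Mbtps1, the protease that makes the first cut in SREBP2, was at 67.0 to 76.0 TPM in all libraries and did not pass. Mbtps2, which makes the next cut within the membrane, was at 11.5 and 12.1 TPM in shNT, 14.1 and 13.2 TPM under hairpin 1, then 12.1 and 12.3 TPM under hairpin 2. Mbtps2 rose by 0.19 ± 0.06 (log2, SE) with hairpin 1 (limma adjusted p = 0.0394), a call lost under 12 of 18 alternatives, including the omission of shNT replicate 1 or of any 1 hairpin library, with limma adjusted p of 0.0362 to 0.877; the gene Yy2 lies within it on the same strand.

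A direct comparison of the hairpins asked whether the fall was equally deep. With hairpin 2 minus hairpin 1, in the fit that shares its spread with shNT, limma called 15 members higher and 2 lower, against 19.9% and 20.2% of all tested genes. With shNT left out of the fit it called 17 higher and 6 lower. The share of all tested genes called in that fit is not given here, so the move from 2 to 6 lower has no background beside it. All 15 were enzymes lower than shNT with each hairpin, and the 2 lower members were Ebp and Insig2. Among the 20 genes lower than shNT with each hairpin, 18 had a higher mean with hairpin 2, and Mvk and Insig1 did not. Gaps of called enzymes ran from 0.17 for Aacs, a call lost under 9 of 18 alternatives, among them the omission of any hairpin library (limma adjusted p 0.00919 to 0.207), to 0.90 for Hsd17b7, which was called under all 18. The Pthlh transcript was at 0 and 0.106 TPM under hairpin 1 and at 0.0423 and 0.263 TPM under hairpin 2, so the hairpins overlapped in it, and its part in this gap was not tested. With 1 hairpin library left out, 10 or 11 members were higher: 10 without hairpin 1 replicate 1 or either hairpin 2 library (replicate 1 or 2), and 11 without hairpin 1 replicate 2.

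**Figure D3:**
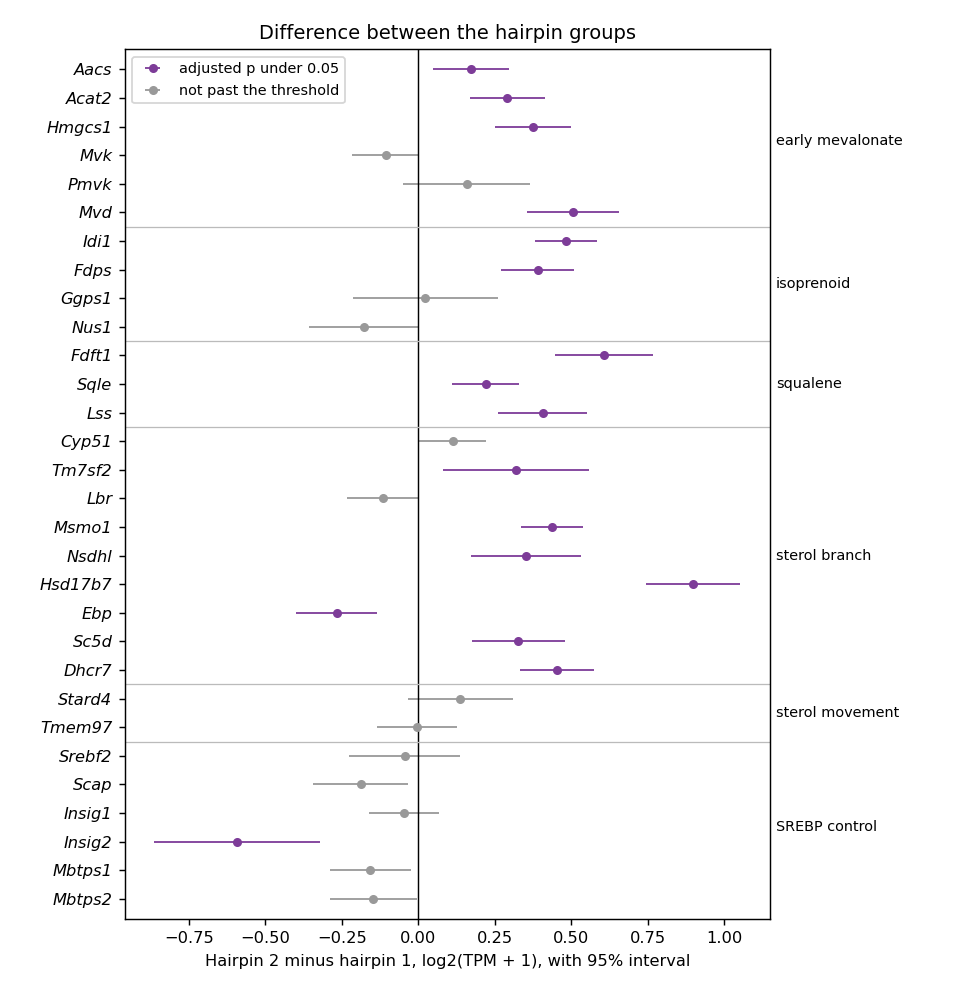
Hairpin 2 minus hairpin 1 in mean log2(TPM + 1), with unadjusted 95% intervals from limma; coloured genes passed an adjusted p of 0.05. Enzymes lie mostly right of 0, up to 0.90 for Hsd17b7, while Ebp and Insig2 lie left of it and Insig1 and Tmem97 lie at it.

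Other genes around the route moved in both directions. Of 35 such genes in the table, 34 were tested, and with both hairpins averaged 5 were lower and 13 higher, where 12.1% and 27.3% of all tested genes were, with a median change of 0.05 against 0.10. With hairpin 2 alone limma called 1 lower and 0 higher (5 and 6 at an unadjusted p under 0.05), where 3% and 6.62% of all tested genes were. Suppliers of acetyl-CoA were the group in which all 3 genes fell with both hairpins averaged. Acly, the citrate lyase that makes cytosolic acetyl-CoA, went from 93.7 TPM in shNT to 61.1 and 78.8 TPM under hairpins 1 and 2, and fell with each (limma adjusted p = 0.000424 and 0.0326). Acss2, which makes acetyl-CoA from acetate, went from 3.92 TPM to 2.71 and 2.89 TPM, and the citrate carrier Slc25a1 from 110.3 TPM to 99.0 and 101 TPM; with hairpin 2 these missed the threshold (limma adjusted p = 0.0516 and 0.141).

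Of 4 electron donors of the sterol enzymes, limma called 3 higher and 1 lower with both hairpins averaged, beside 27.3% and 12.1% of all tested genes. With hairpin 2 it called 0 in either direction (0 higher and 1 lower at an unadjusted p under 0.05), beside 6.62% higher and 3% lower. Cyb5r3, the reductase of cytochrome b5, was the third higher gene and stood at 96.0% of shNT with hairpin 2. Por, the reductase that serves Cyp51 and Sqle, went from 48.5 TPM to 64.96 and 51.4 TPM, and Cyb5a, a cytochrome that serves the desaturase and oxidase steps, from 209 TPM to 302 and 241 TPM. Both rose with hairpin 1 (limma adjusted p = 0.00292 and 0.00741) but did not pass with hairpin 2 (limma adjusted p = 0.359 and 0.195). Cyb5b, its mitochondrial relative, fell with both hairpins averaged (-0.19, limma adjusted p = 0.0210).

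Of 14 genes that use isoprenoids, limma called 5 higher and 0 lower with both hairpins averaged (6 and 0 at an unadjusted p under 0.05), beside 27.3% and 12.1% of all tested genes. With hairpin 1 it called 6 higher and 1 lower, beside 32.1% and 18.1% of all tested genes. The lower gene was Pdss1, the partner subunit of Pdss2, at 70.9% of shNT (limma adjusted p = 0.0170), named after its value was seen. Fnta, the shared subunit of the farnesyl and geranylgeranyl transferases, went from 54.1 TPM to 90.9 and 59.7 TPM, Coq2, which prenylates the ubiquinone ring, from 30.5 TPM to 44.2 and 31.2 TPM, and Pdss2, which builds the ubiquinone tail, from 13.2 TPM to 18.6 and 17.8 TPM. All 3 rose with hairpin 1 (limma adjusted p = 0.000475, 0.000556 and 0.0106) but did not pass with hairpin 2 (limma adjusted p = 0.154, 0.625 and 0.0549).

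Of 11 tested genes for Srebf1 and sterol-regulated protein turnover, limma called 4 higher and 0 lower with both hairpins averaged (also 4 and 0 at an unadjusted p under 0.05), beside the same 27.3% and 12.1% of all tested genes. With hairpin 1 it called 5 higher and 1 lower, beside 32.1% and 18.1% of all tested genes. With hairpin 2 it called 0 in either direction (1 higher and 1 lower at an unadjusted p under 0.05), beside 6.62% higher and 3% lower. Rnf139, a ubiquitin ligase of the endoplasmic reticulum, went from 10.1 TPM to 13.5 and 11.7 TPM, Erlin2, a scaffold of the same turnover, from 24.4 TPM to 33.1 and 23.9 TPM, and Aup1, which recruits the ubiquitin machinery, from 75.1 TPM to 99.3 and 82.6 TPM. These 3 genes did not pass with hairpin 2 (limma adjusted p = 0.114, 0.749 and 0.259). Of the oxysterol receptors, Nr1h2 rose and Nr1h3 fell with hairpin 1 (limma adjusted p = 0.00221 and 0.00715), from 21.8 TPM to 28.2 and 22.2 TPM and from 8.73 TPM to 5.17 and 8.35 TPM.

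**Figure D4:**
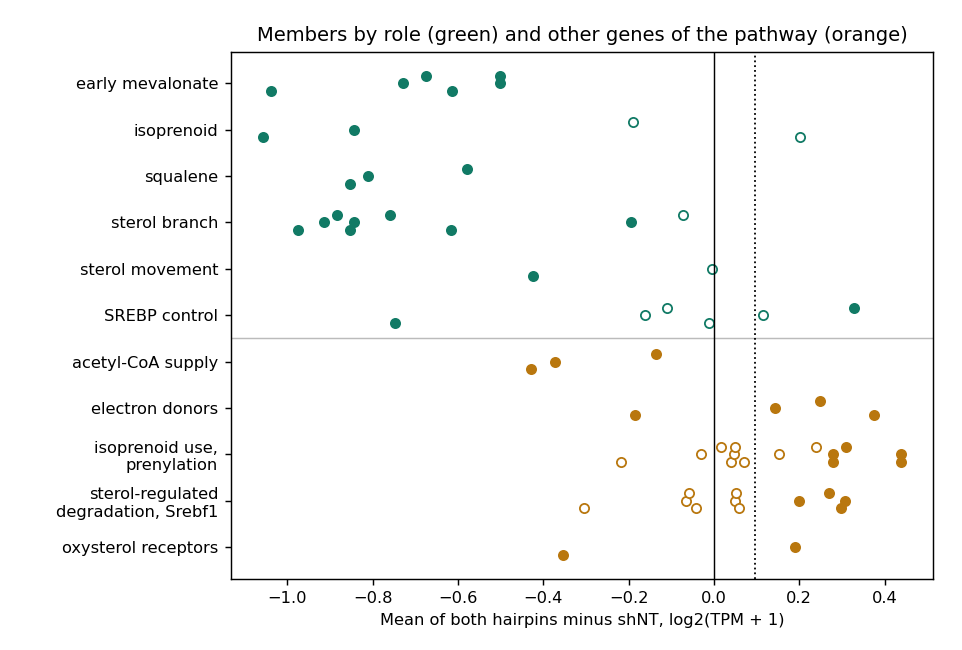
Change with both hairpins averaged, 1 point per gene in mean log2(TPM + 1), for the 30 members by role (green) and the 34 other tested genes of the pathway (orange). Filled points passed an adjusted p of 0.05 by limma, and the dotted line marks the median of all tested genes, 0.10. The members of the synthesis steps lie mostly between -0.5 and -1.1. Genes of the other groups lie mostly nearer to 0, apart from Insig1 of SREBP control at -0.75.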

How the data were processed

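RNA of 6 libraries, 2 per hairpin group, was quantified by the authors as TPM with Salmon on mm10, per the submitters' processing notes, which also name R 3.5 and DESeq2; the Salmon version and strand setting are not given in the sources used here. The deposited TPM values (24493 genes) were analysed as log2(TPM + 1) with limma 3.58.1 in R 4.3.3, with 1 mean per group, a variance trend and Benjamini-Hochberg adjustment at 0.05 over the 11549 genes that reached a TPM of 1 in 2 or more libraries. The code was tested on simulated data. All 30 members are named by rule; of the other pathway genes, up to 3 per list, those with the smallest p with both hairpins averaged. The members and lists were chosen with earlier results of these data known. Replicate numbers did not pair libraries (correlations of deviations 0.02, 0.02 and -0.04), so no block was used. Overlaps came from GENCODE M21, near-identical transcripts from blastn 2.17.0 and promoters from RefSeq. Alternatives covered pseudocount, filter, scaling, variance prior, block, chromosome medians, groups fitted and each library left out.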

Additional observations from a re-analysis of the deposited data

How the results depend on the processing

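Counts of members called lower kept their side under most of the alternatives. With both hairpins averaged, limma called 21 to 25 lower under every scaling, filter, pseudocount, variance prior, block and chromosome setting and 20 to 21 with 1 library left out; with the hairpins pooled it called 0 (20 at an unadjusted p under 0.05) and 0 higher. The 1 higher member became 0 with no filter, quantile normalization, median-ratio scaling, no small-RNA entries or no trend in the prior and 2 with a filter on mean TPM at 5, a robust prior or the replicate block, and ranged from 0 to 2 with 1 library left out. For hairpin 1, 20 to 21 stayed lower with 1 library left out and 1 to 3 higher, with 1 higher under quantile normalization, median-ratio scaling or no small-RNA entries. For hairpin 2, 12 were lower when only its groups were fitted, and 0 to 23 were lower and 0 to 1 higher with 1 library left out. Hairpin 2 against hairpin 1 gave 1 lower without small-RNA entries, 4 with chromosome medians removed and 6 with only the groups compared, and with 1 library left out 0 to 6 lower and 10 to 18 higher. The cause of these shifts was not tested. The replicate block, for numbers that do not pair the libraries, gave 21 lower with both hairpins averaged, 20 for hairpin 1, 17 for hairpin 2 and 14 higher for hairpin 2 against hairpin 1.

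Among all tested genes, counts moved by over 1.5 times as follows. With both hairpins averaged, 3149 higher became 1793 under quantile normalization, 1742 under median-ratio scaling, 967 without small-RNA entries, 0 pooled and 1748 to 1981 without any 1 hairpin library, and 1401 lower became 2167 under median-ratio scaling, 1 pooled, 914 without hairpin 1 replicate 2 and 907 without hairpin 2 replicate 1. For hairpin 1, 3702 higher became 1713 without small-RNA entries and 2179 or 2296 without hairpin 1 replicate 1 or 2. For hairpin 2, 765 higher became 374 with no filter, 236 under quantile normalization, 250 under median-ratio scaling, 147 without small-RNA entries, 472 with no trend, 163 with the replicate block, 47 with only the groups compared, 2102 without shNT replicate 2, and 59, 53, 6 and 8 without hairpin 1 replicate 1 and 2 and hairpin 2 replicate 1 and 2. In the same comparison 347 lower became 211 with no filter, 553 under median-ratio scaling, 113 with the block, 51 with only the groups compared, 545 without shNT replicate 2, and 60, 56, 0 and 3 without those hairpin libraries. Between hairpins, 2297 higher became 1202 to 1376 and 2329 lower became 1114 to 1329 without any 1 hairpin library, and 1452 lower without small-RNA entries.

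Signs turned, under the alternatives run, for member changes that had not passed the test. With both hairpins averaged, Mbtps2 was at -0.030 without small-RNA entries and Scap at 0.10 with chromosome medians removed. With hairpin 1, Mbtps1 was at -0.016, -0.038 and -0.11 under quantile normalization, median-ratio scaling and no small-RNA entries, and with chromosome medians removed Lbr was at 0.072 and Scap at 0.21, which then passed. With hairpin 2, Insig2 was at -0.048, -0.054 and -0.092 and Mbtps2 at -0.036, -0.045 and -0.083 under those 3 scalings, and Nus1 at -0.017 without small-RNA entries. Between hairpins, Tmem97 was at 0.0077 under median-ratio scaling, 0.040 without small-RNA entries and 0.025 with chromosome medians removed, Srebf2 at 0.00015 without small-RNA entries, and Mvk at 0.0064 and Insig1 at 0.067 with chromosome medians removed. With 1 library left out, ranges that crossed 0 were -0.072 to 0.050 for Mbtps1 and -0.056 to 0.049 for Tmem97 with both hairpins averaged, -0.074 to 0.044 for Scap, -0.053 to 0.025 for Lbr and -0.054 to 0.051 for Tmem97 with hairpin 1, -0.12 to 0.18 for Insig2 and -0.058 to 0.047 for Tmem97 with hairpin 2, and -0.033 to 0.024 for Tmem97 and -0.093 to 0.14 for Ggps1 between hairpins. A library left out leaves its group with 1 library, assumed to vary like the others. TPM carries no read depth, so counting error is unknown.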
